A study of Arabidopsis thaliana with 4 samples.

Results

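The wax ester synthase/diacylglycerol acyltransferase (WSD) family of Arabidopsis thaliana was followed in seedling shoots after abscisic acid (ABA). The members were fixed as 10 loci: WSD1 (AT5G37300), AT1G72110, AT2G38995, AT3G49200, AT3G49210, AT5G12420, AT5G16350, AT5G22490, AT5G53380 and FOP1 (AT5G53390, also called WSD11). Of these 10 loci, 6 had a probe set named in the array's annotation, out of 11371 genes named. The loci AT2G38995, AT5G12420, AT5G22490 and FOP1 were not analysed here. Each of the 6 named members had 1 probe set, so no choice between probe sets was needed.

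All plants were wild type of the Col-0 strain, grown without microbes on upright plates of MS medium for 14 days under 24 h light. ABA shoots came from seedlings covered for 5 min with 100 uM ABA in MS basal salts and 0.1% Tween 20, a wetting agent, and cut from the roots 4 h later. Mock shoots came from seedlings treated alike with the MS and Tween solution. Each group had 2 arrays, and each array carried RNA pooled from the shoots of 20 to 24 seedlings, so the tissues of the shoot were mixed and single plants were not resolved.

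WSD enzymes join a fatty alcohol to a fatty acyl-CoA to make a wax ester, and some also join an acyl-CoA to diacylglycerol to make the storage lipid triacylglycerol. Wax esters are one component of the cuticular wax, the lipid film that coats the shoot epidermis and slows water loss. Their fatty alcohols come from acyl-CoA reductases and their acyl chains from the elongation complex of the endoplasmic reticulum. In Arabidopsis WSD1 is the enzyme that makes the wax esters of stems. ABA is the hormone that accumulates in plants short of water.

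WSD1 transcript was higher after ABA, at about 2 times the mock level on every pairing of arrays. Its probe set read 74.0 and 81.1 with ABA against 38.1 and 34.0 in mock shoots. Both ABA arrays thus lay above both mock arrays, and the gap between the groups was larger than the gap within either. The mean intensity was 77.5 ± 5.00 after ABA and 36.1 ± 2.95 after mock treatment (SD, n = 2 arrays each), a ratio of 2.15. Over the 4 pairings of an ABA with a mock array this ratio ran from 1.94 to 2.39. In these pooled shoots, more transcript per cell and more cells that express the gene cannot be told apart.

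On the log2(intensity + 16) scale, on which the groups were tested, WSD1 rose by 0.85 (SE 0.070, 95% interval 0.61 to 1.08). Its p-value in limma, adjusted by Benjamini and Hochberg over all 19371 probe sets, was 0.0230 against a threshold of 0.05. Adding 16 damps noise near 0 and pulls changes of dim genes towards 0, so that an exact doubling of the WSD1 mock mean would read 0.76 on this scale. WSD1 was the only named member past the threshold, which made 1 of 6 higher and 0 lower. Over all probe sets 3.97% were called higher and 19.6% lower, so that a single call among 6 genes is not far from the background.

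**Figure D1:**
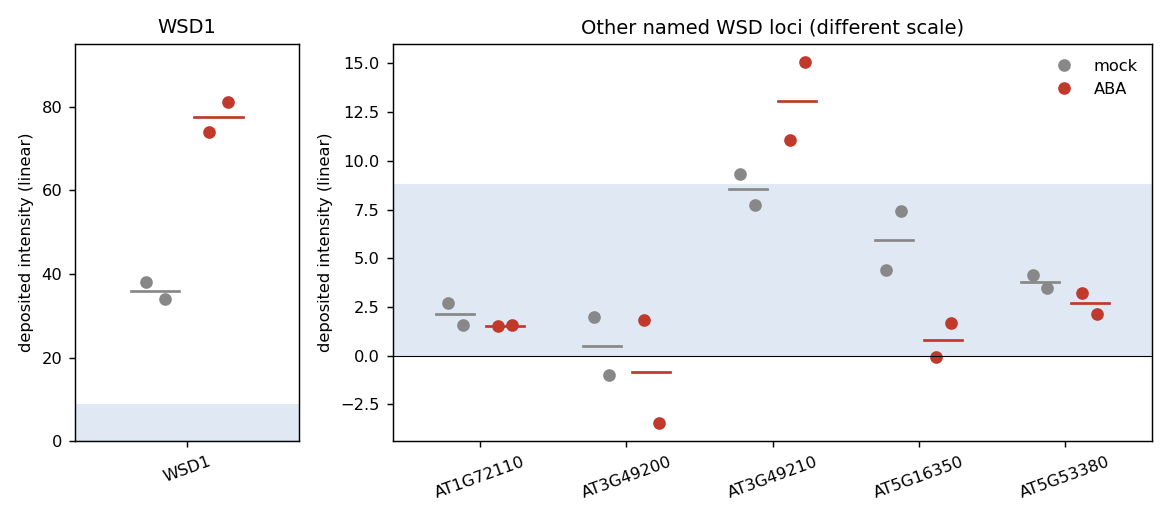
Deposited intensity (linear scale) of the 6 named WSD loci on each array, with WSD1 at left and the other loci at right on a scale of their own. Points are arrays, short lines are group means, and the shaded band reaches from 0 to the highest noise level of the 4 arrays, 8.76. WSD1 lies above the band on all 4 arrays, AT3G49210 near its edge, and the other 4 loci within or below it.

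The call and the size of the WSD1 change depended on choices of processing to different degrees. The sign was positive under each of the 14 alternatives run. The change was 1.13 after quantile normalization (limma adjusted p = 0.0293), where 4.62% of probe sets were called higher. It was 0.48 when the arrays were scaled to their spiked control transcripts and 0.50 with 64 added in place of 16, both past the threshold. With any 1 array left out the change was 0.79 to 0.90 and no longer passed, at limma adjusted p-values of 0.0972 to 0.119. With the replicate number as a block the change stayed at 0.85 with a limma adjusted p of 0.0812. No probe set of the 19371 passed in any of those 5 fits.

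**Figure D2:**
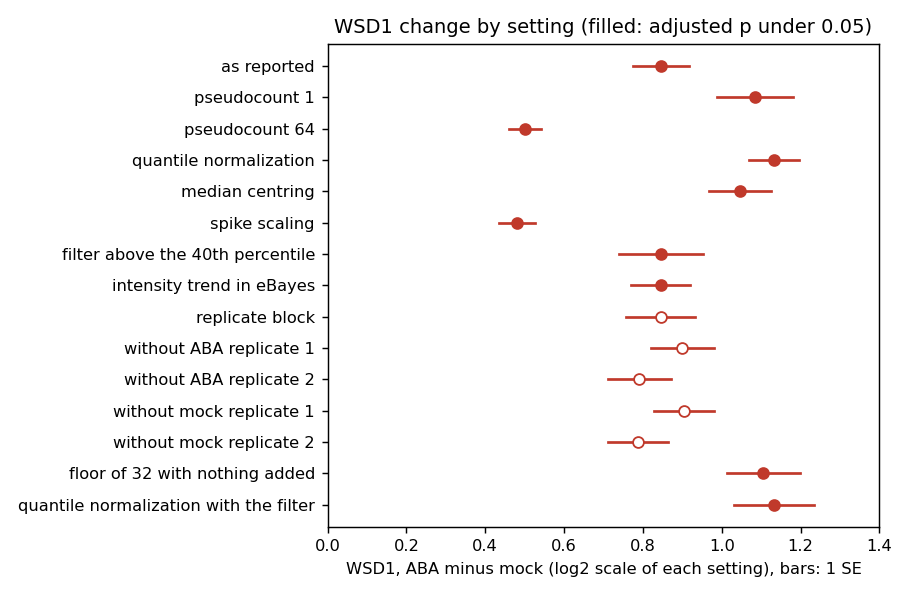
Change of WSD1 (ABA minus mock, log2 scale of each setting) as reported and under 14 alternatives, with bars of 1 SE and filled points where the limma adjusted p is under 0.05. Each point lies above 0, from 0.48 with spike scaling to 1.13 with quantile normalization. The 5 open points are the fits without 1 array and with the replicate block.

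On the deposited scale the change of WSD1 had the opposite sign to the median of probe sets of similar brightness. Probe sets were ranked by mean intensity and divided into 5 classes of equal size, and WSD1 belonged to class 4, whose median change was -0.36. Of the 3874 probe sets in that class 5.27% were called higher and 36.2% lower. The WSD1 change lay 1.21 above the median of its class and 0.98 above the median of all probe sets, which was -0.13. After quantile normalization, which removes most of the array-wide shift by construction, the median of the class was -0.066 and WSD1 lay 1.20 above it. In the fit as reported, without quantile normalization, the WSD1 change was exceeded by 428 probe sets, 2.21% of those tested, and by 195 of the named genes.

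**Figure D3:**
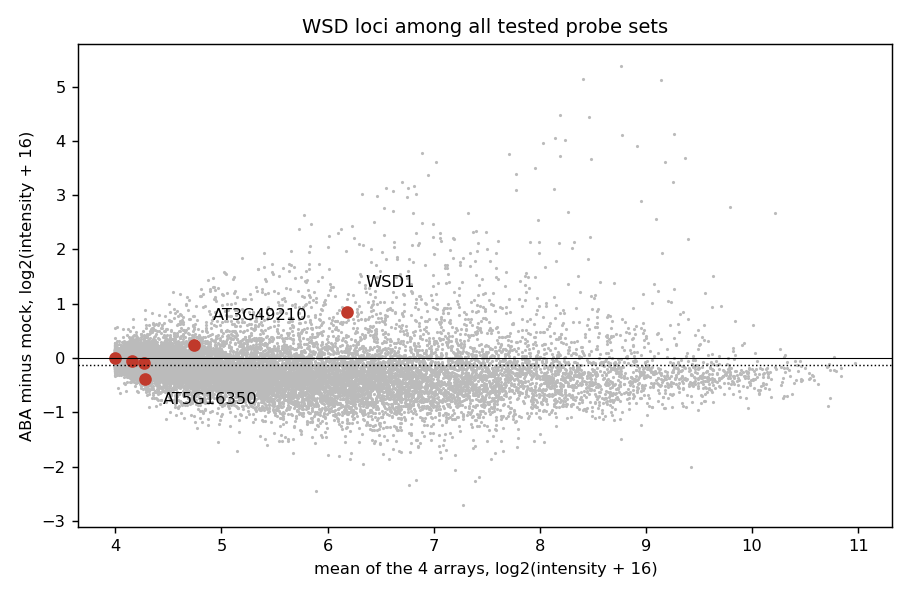
Change after ABA against the mean of the 4 arrays for all 19371 tested probe sets (grey), both on the log2(intensity + 16) scale, with the 6 named WSD loci in red and the median of all probe sets, -0.13, dotted. WSD1 stands at 0.85, above most probe sets of its brightness, while the other members lie at low intensity.

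The other members gave little signal in these shoots. The noise level of an array was taken as the size of its 1st percentile of intensity, which lies below 0, and ran from 7.54 to 8.76. By this measure WSD1 was above noise on all 4 arrays, AT3G49210 on 3, and the remaining 4 members on none. Over all probe sets, 10218 of 19371 were above noise on every array. A reading below noise does not show that a gene is silent, only that this probe set gave no usable level.

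AT3G49210, whose product is grouped with the WSD enzymes by sequence, read 11.1 and 15.1 with ABA against 9.33 and 7.75 in mock shoots. Its ABA arrays both lay above its mock arrays, although the pair of ABA arrays differed from each other nearly as much as the group means did. The log2 change was 0.24 (SE 0.096, 95% interval -0.080 to 0.56) and did not pass, with a limma adjusted p of 0.194. A doubling of its mock mean would read 0.43 on this scale, which lies inside that interval. After median centring the change was 0.44 and passed (limma adjusted p = 0.0370), where 9.69% of all probe sets were called higher. It also passed at 0.40 after quantile normalization with only probe sets above the 40th percentile of intensity tested (limma adjusted p = 0.0301), of which 14.7% were called higher. With all probe sets tested after quantile normalization it did not pass (limma adjusted p = 0.120). The change was smaller, and did not pass, under spike scaling (0.051), with a pseudocount of 64 (0.087), with a floor of 32 (0) and without ABA replicate 2 (0.14).

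AT5G16350 pointed the other way at intensities that were all within noise. Its probe set read -0.0713 and 1.66 with ABA against 4.40 and 7.45 in mock shoots, so that its ABA arrays both lay below its mock arrays. The log2 change was -0.38 (SE 0.11, 95% interval -0.74 to -0.022) with a limma adjusted p of 0.112, and it passed under none of the alternatives. No fold is given, because both groups lay at or under the noise level.

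The remaining 3 members gave values near 0 in both groups. AT5G53380, whose locus lies next to FOP1, read 3.22 and 2.14 after ABA and 4.13 and 3.48 after mock treatment (log2 change -0.085). AT1G72110 read 1.53 and 1.57 after ABA and 2.72 and 1.57 after mock treatment (log2 change -0.048). AT3G49200 read 1.84 and -3.48 after ABA and 1.96 and -0.991 after mock treatment (log2 change -0.0049). None passed, at limma adjusted p-values of 0.291, 0.517 and 1. The groups of AT5G53380 and AT1G72110 did not overlap, those of AT1G72110 by a margin far smaller than the spread of its mock arrays.

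Over the 6 named members, the median log2 change was -0.026, against -0.13 over all probe sets. The groups did not overlap in 5 of the 6, with ABA higher in WSD1 and AT3G49210 and lower in AT5G16350, AT5G53380 and AT1G72110. Among all probe sets 65.8% had groups that did not overlap, 15% with ABA above and 50.8% with ABA below. The interval of WSD1, from 0.61 upwards, lay above the intervals of the other 5 members, of which the highest ended at 0.56. Differences between members were not tested, and near the noise level the added constant narrows both the change and its interval.

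Members that lie side by side on a chromosome were looked at together with the genes beside them, in the gene order of the TAIR10.1 assembly. AT3G49200 and AT3G49210 are direct neighbours and belong to a run of 3 loci with AT3G49190, which is not among the 10 members. AT3G49190 read -0.333 and 7.14 after ABA and 5.25 and 10.6 after mock treatment, with overlapping groups and a change of -0.31 on the log2 scale, short of the threshold (limma adjusted p = 0.508). The gene on the far side of AT3G49210, AT3G49220, was bright and rose. It read 543 and 626 with ABA against 222 and 205 in mock shoots (log2 change 1.38, SE 0.098, limma adjusted p = 0.0206).

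Altogether the members have 16 flanking protein-coding genes that are not members, of which 8 were named. Of these 8, AT3G49220 was higher and 0 were lower, against 3.97% and 19.6% of all probe sets. On one side of WSD1, AT5G37290 read 18.2 and 20.2 after ABA and 29.5 and 37.0 after mock treatment. Its groups thus lay in the opposite order to those of WSD1, with a change of -0.48 on the log2 scale, short of the threshold (limma adjusted p = 0.0707). Among all probe sets, 50.8% likewise had both ABA arrays below both mock arrays. The gene on the other side, AT5G37310, was not analysed here. Beside AT1G72110, the transporter gene AT1G72120 (NPF5.14) read 10.9 and 14.0 after ABA and 4.81 and 5.54 after mock treatment, with a change of 0.42 on the log2 scale, short of the threshold (limma adjusted p = 0.0525).

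The genes that supply or regulate wax and related lipids were sparsely named on this array. Of 62 loci listed for wax elongation and modification, wax export, wax regulators, fatty acyl reductases, triacylglycerol synthesis and cutin, 5 had a named probe set. None of the listed fatty acyl reductases was among them, and neither was CER4 (FAR3), a reductase listed under wax elongation and modification. Of the 5 named, 0 were higher and 1 was lower, against 3.97% and 19.6% of all probe sets, and their median log2 change was -0.0054.

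AT4G13840 (CER26), whose protein is needed to elongate the longest acyl chains of leaf wax, fell while WSD1 rose. Its probe set read 89.0 and 89.4 with ABA against 173 and 184 in mock shoots. The ABA mean was 0.500 of the mock mean, and both ABA arrays lay far below both mock arrays. The log2 change was -0.88 (SE 0.038, 95% interval -1.01 to -0.76, limma adjusted p = 0.0170). CER26 belonged to the brightest of the 5 brightness classes, whose median change was -0.33. After quantile normalization the change of CER26 was -0.63 (limma adjusted p = 0.0302) and the median of that class -0.086. As with WSD1, its call ended with the replicate block, a fit in which no probe set of the 19371 passed. With any 1 array left out the change of CER26 was -0.92 to -0.85.

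AT5G61590 (DEWAX), a transcription factor gene whose product represses wax synthesis genes, had the lowest reading relative to mock among the 5. It read 7.12 and 9.04 with ABA against 40.1 and 70.0 in mock shoots. The groups did not overlap, but the mock arrays differed widely from each other, and the lower ABA reading was below noise. The log2 change was -1.53 (SE 0.27, 95% interval -2.43 to -0.63) and narrowly missed the threshold, with a limma adjusted p of 0.0535. It passed under 6 of the 10 alternatives that kept all arrays, among them a pseudocount of 1 (-2.58), median centring (-1.33) and spike scaling (-1.79). It did not pass after quantile normalization (-1.32, limma adjusted p = 0.0920) or with the replicate block (-1.53, limma adjusted p = 0.0899). Nor did it pass with a pseudocount of 64 (-0.71, limma adjusted p = 0.0790) or a floor of 32 (-0.73, limma adjusted p = 0.454).

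The other 3 genes of these lists were at or below noise, apart from 1 reading of SHN3 that just exceeded it. SHN2 and SHN3, related transcription factor genes of the cuticle, had log2 changes of 0.018 and 0.36, and AT1G02190 one of -0.0054. None of the 3 passed under any alternative. SHN3 read 7.57 and 1.83 with ABA and below 0 on both mock arrays, and SHN2 fell on both sides of 0 within each group.

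A further 4 lipid genes were picked by their symbols after the annotation had been seen, and 0 of them passed, against 3.97% higher and 19.6% lower among all probe sets. AT3G23840 (CER26-LIKE) read 63.2 and 65.0 after ABA and 29.7 and 48.3 after mock treatment. Its log2 change of 0.56 had the opposite sign to that of CER26 (95% interval -0.14 to 1.27, limma adjusted p = 0.177). It was 0.20 under spike scaling and 0.32 without mock replicate 1, both short of the threshold, and it passed after median centring (0.76), with the filter (0.56) and after quantile normalization with the filter (0.85). OLEO3, which encodes an oleosin, a coat protein of lipid droplets, read 9.51 and 11.3 after ABA and 5.75 and 7.04 after mock treatment (log2 change 0.24). Both of its mock readings were below noise. FACT, whose enzyme joins fatty alcohols to caffeic acid, read 16.8 and 20.5 after ABA and 27.5 and 35.4 after mock treatment (log2 change -0.45). FaTA, a thioesterase gene that releases fatty acids in the plastid, had overlapping groups and a log2 change of -0.33. OLEO3 passed after median centring (0.44) and after quantile normalization with the filter (0.36), FACT under spike scaling (-0.74) and with the filter (-0.45), and FaTA under no alternative. With a floor of 32 the changes of OLEO3 and FACT were 0 and -0.073.

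**Figure D4:**
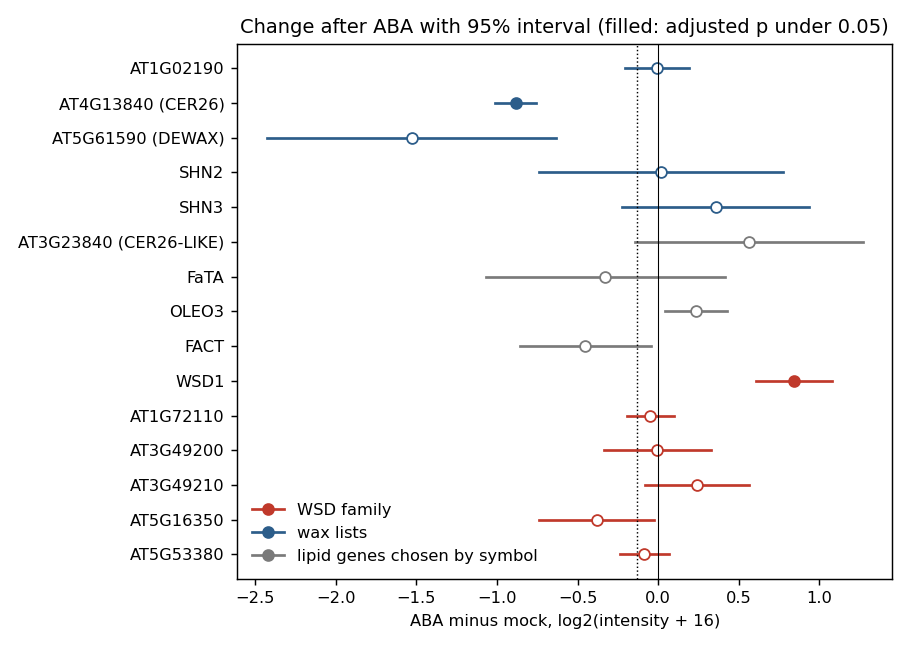
Change after ABA (ABA minus mock, log2(intensity + 16)) with its 95% interval from limma for the 6 named WSD loci (red), the 5 named genes of the wax lists (blue) and 4 lipid genes chosen by symbol (grey). The dotted line is the median of all probe sets, -0.13. Filled points, WSD1 at 0.85 and CER26 at -0.88, passed the threshold.

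The genes whose course over the 4 arrays was closest to that of WSD1 were found by the root mean square difference of log2 values, after subtracting each gene's mock mean, among 6238 named genes above the 40th percentile of intensity. AT1G13930 was closest, at a root mean square difference of 0.0132. It read 796 and 852 after ABA and 462 and 433 after mock treatment. SDH1-1, which encodes the flavoprotein subunit of mitochondrial succinate dehydrogenase, followed at 0.0339, with 213 and 219 after ABA and 114 and 107 after mock treatment. AT3G48240, AT4G17650 and AT3G28270 were next, at 0.0407, 0.0471 and 0.0512. With 4 arrays in 2 groups this likeness mostly restates a similar change, from 0.86 to 0.92 in these 5 genes.

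The tissue label was checked on marker genes. Of 10 genes of green shoot tissue, 7 were named, all above noise on each array, and 6 were lower after ABA, against 19.6% of all probe sets. The exception, LHB1B2 (LHCB1.5), had both ABA arrays above both mock arrays and a log2 change of 0.17 that missed the threshold. LHB1B2 and RCA had 3 probe sets each, and LHCB4.1 and LHCB4.2 had 2 each. Only the brightest of each gene is described here. All 7 lay in the brightest of the 5 brightness classes, whose median change was -0.33. The changes of LHCB4.1 (-0.37) and LHCB4.2 (-0.38) lay near that median. Those of PRK, RCA, SBPASE and LHCB4.3 were larger falls, from -0.72 to -1.05. The 7 genes had summed intensities of 6735 and 6928 with ABA against 9362 and 10130 in mock shoots. Of 8 root markers 2 were named: PYK10, a root and hypocotyl gene, had a mean of 112 ± 11.2 with ABA against 300.1 ± 28.8 in mock (SD, n = 2 arrays each), and was lower. EXPA7 was called higher (log2 change 0.12, limma adjusted p = 0.0491), at readings of 1.75 or less, below noise on each array. Of 7 guard cell and stomatal lineage markers 2 were named, with summed intensities of 24.8 and 25.7 after ABA and 41.7 and 47.7 after mock treatment. Neither passed the threshold. Most of the sums came from FAMA (log2 change -0.50, limma adjusted p = 0.0761). MUTE was below noise on each array, with overlapping groups (log2 change -0.23, limma adjusted p = 0.362). Of the 6 markers of the shoot epidermis, the tissue that makes cuticular wax, and of the 3 flower and stem markers, none was named. The ratio of the 3' to the 5' GAPDH control set, a sign of RNA quality, was 1.41 and 1.49 with ABA against 1.32 and 1.39 in mock shoots. The part of these differences in the changes of WSD1 and CER26 was not tested.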

How the data were processed

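Per the labels' protocols, biotin-carrying amplified RNA was hybridised to 1-colour arrays. The deposited intensities are linear, 1 per probe set and array, and 12.8% to 13.7% of them lie below 0 on each array. How the authors corrected background, summarised and scaled them, and the array's genome build, were not given in the sources used here. Median intensities were 12.4 and 12.9 for ABA against 16.9 and 17.0 for mock. There is no read depth for arrays, so precision is limited by having 2 per group.

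Control sets (287 of 19658) were left out. The public annotation of the array supplied gene names, which the RefSeq gene table of TAIR10.1 updated. One name was found for 11598 tested probe sets, several for 0 and none for 7773. Negative intensities were raised to 0 before adding 16 and taking log2. All 19371 probe sets entered one limma fit (version 3.58.1, R 4.3.3, two-sided, empirical Bayes), adjusted by Benjamini and Hochberg at a threshold of 0.05. The code of the fit was tested on simulated data with noise of a common SD and no array-wide shift. Such data differ from the deposited arrays, so this test does not bear on the calls reported here. Every named member is described, with up to 10 named genes of each pathway list and the 5 genes most like WSD1. Flanking genes and lipid genes picked by symbol were added after the annotation was seen. Members and lists were chosen with earlier results of these data known. Alternatives changed the pseudocount, scaling, filter, variance model, floor, replicate block and arrays used. The labels call the replicates biological.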

Additional observations from a re-analysis of the deposited data

How the results depend on the processing

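With any 1 array left out, limma called 0 WSD members, 0 wax and lipid list genes and 0 probe sets in all, with 5780 to 6459 probe sets at an unadjusted p under 0.05 and, of the WSD members, 1 in each of these fits. WSD1 itself then changed by 0.79 to 0.90. With the replicate block the counts were 0 members, 0 list genes and 0 probe sets (7115 at an unadjusted p under 0.05, 2 of them members), and WSD1 lay at 0.85 with a limma adjusted p of 0.0812. The replicate numbers are shared between groups, and the fit as reported did not pair the samples by them. The differences between replicate 1 and replicate 2 correlated at 0.0389 between ABA and mock over all 19371 probe sets. Of these, 10218 were above noise on every array, so that this low correlation cannot exclude a pairing. Median centring, and quantile normalization with the filter, which was chosen after seeing the data, each gave 2 members (WSD1 and AT3G49210). The wax and lipid lists gave 2 genes, CER26 and DEWAX, with a pseudocount of 1, median centring, spike scaling, the filter, the intensity trend, and quantile normalization with the filter. Over all probe sets 4574 were called as reported, 1911 after quantile normalization, 8610 under spike scaling, 6872 with the filter and 2625 with a floor of 32, where most probe sets sit at the floor on each array and the variance estimate of limma is unreliable. Lower calls made up 83.2% as reported, 53.2% with quantile normalization, 56.3% with median centring and 93.9% with spike scaling. The median of all probe sets lay at -0.0048, 0.070 and -0.34 under these 3 scalings. Median centring adds a constant to each array and so moves probe sets near 0 upwards by construction. Signs turned only in dim genes that did not pass: AT1G72110 (0.15), AT3G49200 (0.20), AT5G53380 (0.12) and AT1G02190 (0.20) under median centring, AT3G49200 (0.0096) and AT1G02190 (0.073) after quantile normalization, and SHN2 (-0.039) under spike scaling. With 1 array left out, both signs occurred for AT3G49200 (-0.088 to 0.079), AT1G02190 (-0.064 to 0.054) and SHN2 (-0.18 to 0.21). Of all 182 values of the 14 single genes other than WSD1, 149 kept their direction and their side of the threshold. The choice between probe sets of a gene was not run, as no member had several, although some marker genes did.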
